A study of Mus musculus with 18 samples.

Results

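Astrocytes help neurons build and prune their synapses through proteins that they secrete or display. Thrombospondins (*Thbs1*, *Thbs2*), the SPARC relative hevin (*Sparcl1*) and its antagonist *Sparc*, the glypicans (*Gpc4*, *Gpc5*, *Gpc6*) and chordin-like 1 (*Chrdl1*) act on synapse formation and maturation, while the receptors *Megf10* and *Mertk* let astrocytes take up synaptic material and dying cells. The levels of these 10 genes were followed while mouse neural stem cells turned into astrocytes, without and with the inflammatory cytokine TNF. The genes were chosen by name, as a group of astrocyte genes for synapse formation and engulfment, and all 10 were found in the deposited table of 54838 genes. All 10 passed the filter on low counts, which left 20067 genes to be tested.

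The cells came from the ventricular zone of C57BL/6J mouse embryos at day 14 and were grown as neurospheres (NSPs), floating aggregates of neural stem cells kept proliferating in medium with B27 and 20 ng/ml EGF. Differentiation was started on poly-L-ornithine by replacing this medium with DMEM and 10% serum, without added EGF. The 18 libraries of rRNA-depleted total RNA were 3 replicates each of NSPs, of astrocytes after 24 h, 72 h and 1 week in serum, and of astrocytes after 24 h and 72 h in serum plus 50 ng/ml TNF. Every difference from NSPs therefore joins serum, the loss of EGF and B27, and attachment, which cannot be told apart, and the comparisons with NSPs share the same 3 NSP libraries. The study's general statement on statistics speaks of independent biological experiments, but the labels do not say which cultures or animals these replicates came from, so p-values measure the spread between these samples.

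Levels are CPM, counts scaled to library size with edgeR's TMM factors, as mean ± SD over 3 replicates. A gene is said to rise, fall or be called where edgeR's quasi-likelihood test, fitted once over the 18 libraries, gave a Benjamini-Hochberg adjusted p under 0.05 over all 20067 genes. Total counts ranged from 12509693 to 22549627 per library, with a median of 16794798. In these bulk samples, fewer cells that express a gene and less RNA per cell cannot be told apart. All 9 astrocyte markers looked at had a mean of at least 1 CPM in every condition. Their summed level was 5240 to 5463 CPM in NSPs, 6203 to 8493 at 72 h and 3501 to 3631 at 1 week. Taken singly, these markers did not share the larger sum of 72 h. Against NSPs, 3 of the 9 rose by then, 3 fell and 3 were not called. Only 4 had a log2 fold change above 0, and the median was -0.35. By 1 week 1 had risen and 5 had fallen, with a median of -0.66. *Gfap*, the astrocyte intermediate filament, was at 27.1 ± 13.7 CPM in NSPs, 2432 ± 673 CPM at 72 h and only 63.4 ± 15.9 CPM at 1 week, so the 1-week cells were low in this defining marker. The 7 microglia and macrophage markers summed to at most 3.95 CPM in any library and the 4 endothelial markers to at most 6.75 CPM. Other lists moved with differentiation. The 7 fibroblast and mural markers, of which only *Acta2* had a mean of 1 CPM or more without TNF, summed to 4.38 to 11.04 CPM in NSPs, 402 to 495 CPM after 24 h in serum, 196 to 292 CPM after 72 h and 325 to 410 CPM after 1 week. The 5 oligodendrocyte lineage markers went from between 81.2 and 182 CPM in NSPs to between 21.8 and 26.9 at 1 week, and the 4 stem cell and cycling markers from between 2270 and 3719 to between 804 and 1216. In the latter list *Nes* had the highest mean, 863 CPM over the 18 libraries. Its 4 genes had a median log2 fold change of -7.52 from NSPs to 1 week. Of these 3 were called lower, beside 29.1% of all tested genes. The 6 neuron markers summed to 17.9 to 35.7 CPM in NSPs, 38.8 to 46.96 CPM at 24 h, 10.4 to 11.5 CPM at 72 h and 6.58 to 7.60 CPM at 1 week, with no overlap between these conditions. Their part in the changes from NSPs described below was not tested.

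NSP replicate 1 and replicate 1 of both TNF conditions stood apart from their mates. Over all tested genes, their root mean square log2 distance from the mean of the other replicates was 0.646 (NSP), 0.613 (24 h TNF) and 0.584 (72 h TNF), and 72 h replicate 1 followed at 0.532, against 0.325 to 0.472 for the remaining 14 libraries. In TNF replicate 1, the smooth muscle actin gene *Acta2* was at 90.3 CPM at 24 h and 49.2 CPM at 72 h, against 493 to 527 and 186 to 202 CPM in its mates. *Gfap* went the other way in the same libraries, with 1871 CPM at 24 h against 463 to 596, and 1022 CPM at 72 h against 217 to 229. Calls that changed without these libraries are given both ways below.

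Most of the 10 genes changed as NSPs differentiated, and few differed with TNF. At 24 h, 6 genes were higher than in NSPs and 2 lower, where 27.2% of all tested genes were higher and 25.5% lower. At 72 h, 6 were higher and 2 lower (background 28.1% and 27.2%), and at 1 week 6 were higher and 3 lower (29.6% and 29.1%). The 10 genes had a median log2 difference to NSPs of 1.12 at 24 h, 1.65 at 72 h and 1.40 at 1 week, beside medians of 0.06, 0.05 and 0.06 over all tested genes. Between 24 h and 72 h without TNF, 3 of the 10 rose while 3 fell (12.2% and 12.6%), with a median of 0.00 beside -0.01 over all genes, and from 72 h to 1 week 1 rose and 2 fell (2.68% and 3.96%), with a median of -0.06 beside 0.00. With TNF, 1 gene was higher and none lower at 24 h (2.18% and 1.32%), with a median of -0.13 beside -0.01, and at 72 h none was higher and 2 were lower (4.35% and 5.21%), with a median of -0.50 beside -0.01. At 24 h the oligodendrocyte marker sum was the only one of 7 that did not overlap between libraries with and without TNF, at 43.4 to 55.96 CPM with TNF and 61.1 to 63.1 CPM without. At 72 h 4 of the 7 marker sums differed with TNF without overlap between libraries: the astrocyte list was at 3695 to 5115 CPM with TNF and 6203 to 8493 CPM without, the stem cell and cycling list at 281 to 632 and 720 to 1030.1 CPM, the oligodendrocyte list at 24.2 to 80.3 and 14.3 to 18.5 CPM, and the endothelial list at 0.958 to 2.57 and 5.30 to 6.75 CPM. Single genes did not all follow these sums. None of the 4 stem cell and cycling genes was called, and 3 had a log2 difference above 0 (median 0.21). Of the 4 oligodendrocyte genes tested, 1 was called higher and 2 lay above 0 (median -0.07). Their 80.3 CPM was replicate 1, with mates at 24.2 and 28.4 CPM. Of 2 endothelial genes tested, 1 was called lower and 1 lay above 0. Of the 9 astrocyte genes, 3 were called lower and none higher. The part of these lists in the TNF differences was not tested. At an unadjusted p under 0.05, and by DESeq2, the TNF counts were again 1 gene at 24 h and 2 at 72 h, where 13.8% and 25.2% of all tested genes had an unadjusted p under 0.05. Between 24 h and 72 h in TNF, 1 gene rose and 3 fell (5.38% and 7.93%), with a median of 0.00 beside 0.00.

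**Figure D1:**
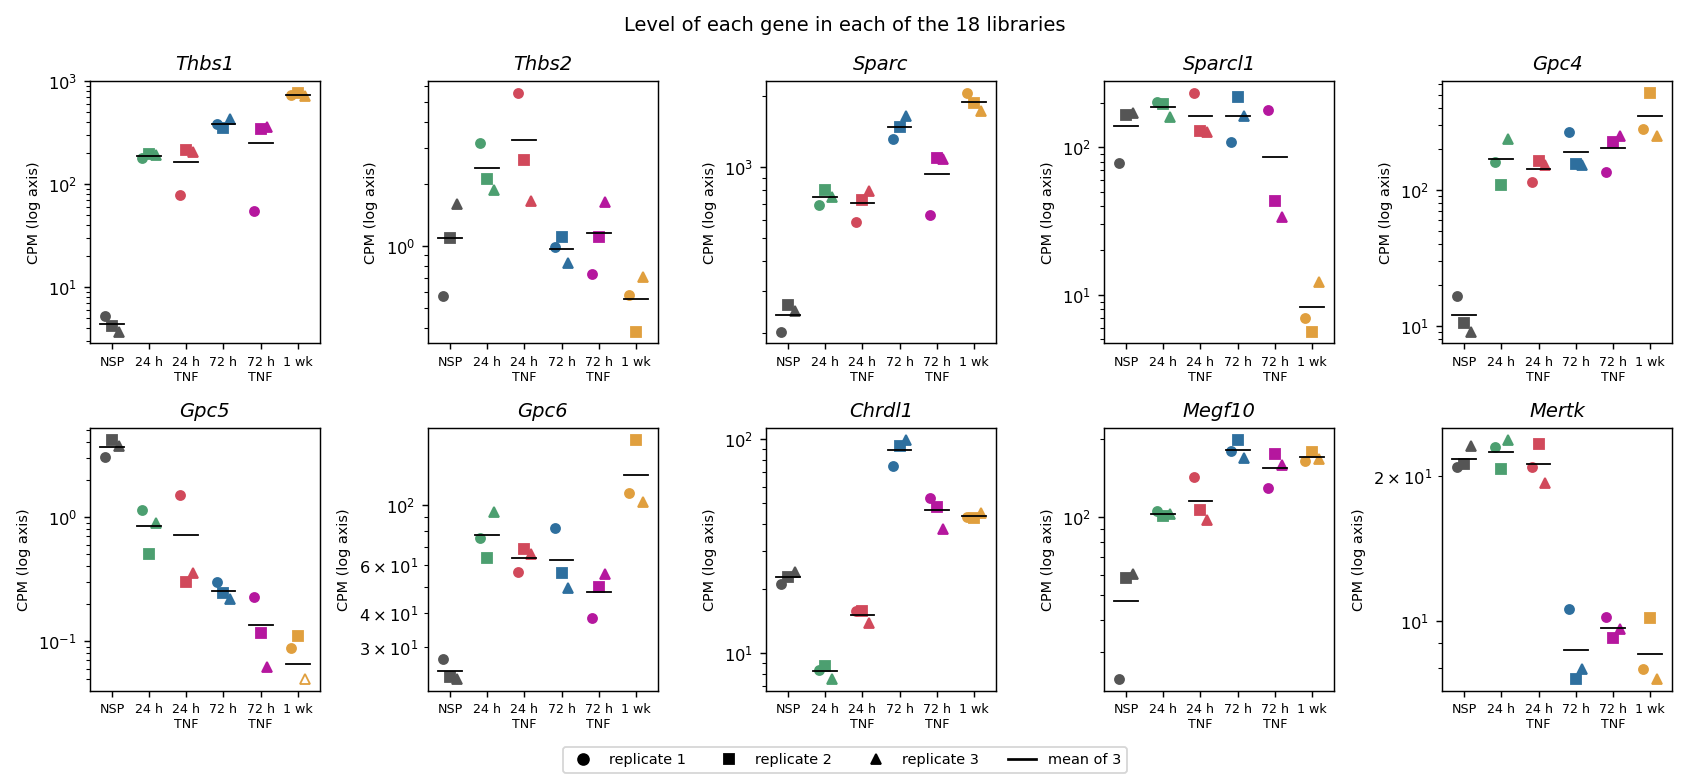
Level of each of the 10 genes in each of the 18 libraries, in CPM on a log axis, by condition, with replicates 1, 2 and 3 as circles, squares and triangles and the mean of 3 as a line; the open triangle for *Gpc5* at 1 week is a library with 0 counts, drawn near the bottom of the axis. *Thbs1* spans 3.7 CPM in NSPs to 772 CPM at 1 week, *Sparcl1* falls to between 5.65 and 12.2 CPM at 1 week, and *Chrdl1* is lowest at 24 h and highest at 72 h without TNF.

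**Figure D2:**
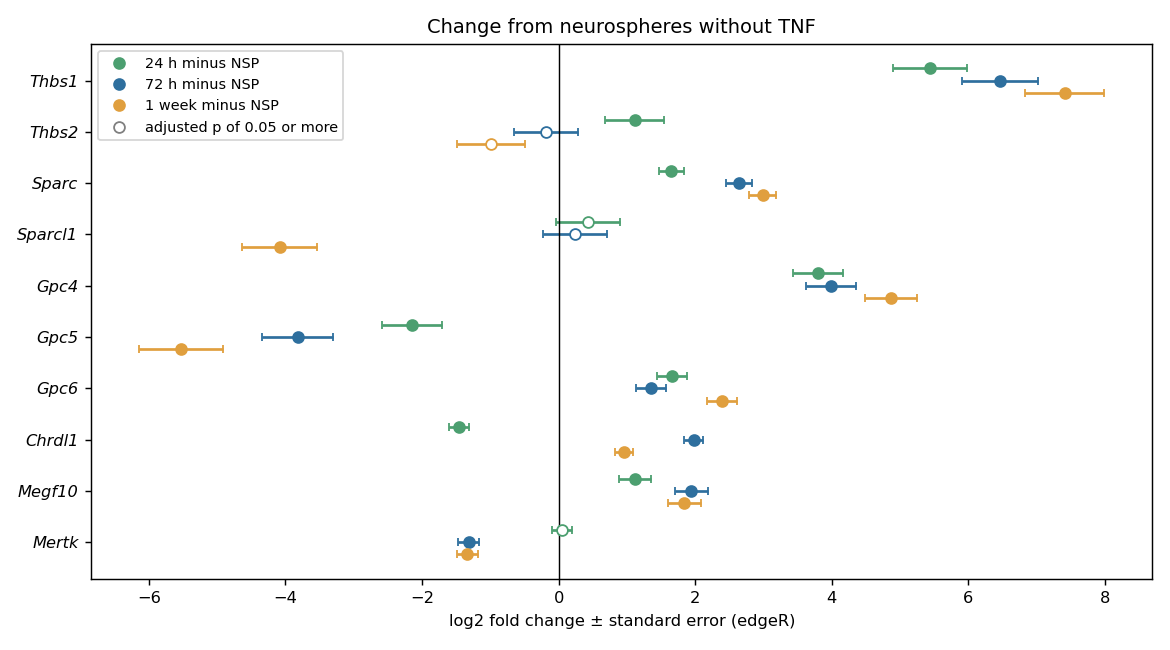
Log2 fold change of each gene from NSPs to 24 h, 72 h and 1 week without TNF (x axis), with bars of 1 standard error from edgeR and open points where the adjusted p was 0.05 or more. *Thbs1*, *Sparc*, *Gpc4*, *Gpc6* and *Megf10* lie to the right of 0 at all 3 times, *Gpc5* lies to the left at all 3, and *Chrdl1* changes side between 24 h and 72 h.

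*Thbs1* and *Thbs2* encode thrombospondin-1 and -2, secreted matrix glycoproteins by which immature astrocytes promote the formation of excitatory synapses. *Thbs1* (ENSMUSG00000040152, GRCm38 chromosome 2, 118111876 to 118127133, forward strand) was at 5.27, 4.17 and 3.7 CPM in the 3 NSP libraries, at 181, 195 and 192 CPM at 24 h, at 384, 349 and 426 CPM at 72 h and at 731, 772 and 728 CPM at 1 week. No library of one of these times overlapped with those of the next. The log2 fold change from NSPs was 5.44 ± 0.54 (SE) at 24 h, 6.47 ± 0.56 at 72 h and 7.41 ± 0.58 at 1 week (edgeR adjusted p = 2e-07, 1.7e-08 and 3.85e-09), a 170-fold difference between NSPs and 1 week. The further steps from 24 h to 72 h (1.03 ± 0.43, edgeR adjusted p = 0.091) and from 72 h to 1 week (0.94 ± 0.43, edgeR adjusted p = 0.231) missed the threshold. Without 72 h TNF replicate 1, whose spread enters the shared fit, the same steps were called, at 1.05 (edgeR adjusted p = 0.00262) and 0.94 (edgeR adjusted p = 0.0157). Both were also called in fits of the compared conditions alone, at 1.03 (edgeR adjusted p = 6.21e-05) and 0.94 (edgeR adjusted p = 0.000763).

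With TNF, *Thbs1* was at 79.1, 214 and 205 CPM at 24 h and at 55.3, 344 and 358 CPM at 72 h. Replicates 2 and 3 were within or close to the untreated range and replicate 1 was low at both times, in the same libraries in which *Acta2* was low, and the part of those libraries' other differences in this value was not tested. The difference from untreated cells was -0.19 ± 0.43 at 24 h (edgeR adjusted p = 0.91) and -0.62 ± 0.43 at 72 h (edgeR adjusted p = 0.39), the latter with a 95% interval from -1.45 to 0.22. Without 72 h TNF replicate 1 the 72 h difference was -0.14 (edgeR adjusted p = 0.823), and without 24 h TNF replicate 1 the 24 h difference was 0.13 (edgeR adjusted p = 0.949). From 24 h to 72 h in TNF the difference was 0.60 ± 0.43 (edgeR adjusted p = 0.402), and 1.11 (edgeR adjusted p = 0.00761) without 72 h TNF replicate 1. The gene *Gm29233*, annotated on the other strand over exons of *Thbs1*, had 0 to 9 counts in any library.

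*Thbs2* (ENSMUSG00000023885, chromosome 17, 14665500 to 14694235, reverse strand) stayed low. Its libraries read 0.571, 1.1 and 1.59 CPM in NSPs, 3.17, 2.12 and 1.87 CPM at 24 h, 0.984, 1.1 and 0.825 CPM at 72 h and 0.574, 0.384 and 0.704 CPM at 1 week. It was higher at 24 h than in NSPs (log2 1.12 ± 0.43, edgeR adjusted p = 0.0372) and fell again from 24 h to 72 h (-1.30 ± 0.44, edgeR adjusted p = 0.0393), but both calls were lost when any of several libraries was left out: without NSP replicate 1 the first was 0.82 (edgeR adjusted p = 0.139), and without 24 h replicate 1 the second was -1.05 (edgeR adjusted p = 0.16). In TNF it read 5.54, 2.61 and 1.65 CPM at 24 h and 0.732, 1.1 and 1.63 CPM at 72 h, a change of -1.51 on the log2 scale (SE 0.42, edgeR adjusted p = 0.0235) whose call was lost under 5 of 25 alternatives, among them those without 24 h TNF replicate 1 (-0.84, edgeR adjusted p = 0.164), without 72 h TNF replicate 1 (-1.23, edgeR adjusted p = 0.0954) and without 72 h TNF replicate 2 (-1.48, edgeR adjusted p = 0.0718). Its difference between NSPs and 1 week was not called (-0.99 ± 0.50, edgeR adjusted p = 0.0936), but was without NSP replicate 1 (-1.29, edgeR adjusted p = 0.0388) and without replicate 1 of both TNF conditions (-0.98, edgeR adjusted p = 0.0408). Per kilobase of exon, the level of *Thbs1* was 2.68 to 10.6 times that of *Thbs2* in the NSP libraries and 1192 to 2320 times at 1 week.

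*Sparcl1* encodes hevin, a secreted protein that promotes the formation of excitatory synapses, and *Sparc* encodes the related matricellular protein that opposes it. *Sparc* (ENSMUSG00000018593, chromosome 11, 55394500 to 55423183, reverse strand) had the highest level per kilobase of exon of the 10 genes in every condition, from 62.6 ± 8.15 CPM per kb in NSPs, where it overlapped with *Sparcl1* (47.1 ± 17.6), to 496 ± 43.3 at 1 week. Its libraries read 202, 262 and 247 CPM in NSPs, 690, 801 and 744 CPM at 24 h, 1309, 1478 and 1642 CPM at 72 h and 2052, 1862 and 1725 CPM at 1 week, with no overlap between neighbouring times. The log2 fold change from NSPs was 1.65 ± 0.18 at 24 h, 2.64 ± 0.19 at 72 h and 2.99 ± 0.19 at 1 week (edgeR adjusted p = 8.72e-07, 1.58e-09 and 3.14e-10). The step from 24 h to 72 h was called (0.99 ± 0.18, edgeR adjusted p = 0.000544) and that from 72 h to 1 week was not (0.35 ± 0.18, edgeR adjusted p = 0.306).

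*Sparcl1* (ENSMUSG00000029309, chromosome 5, 104079111 to 104113733, reverse strand) took another course. It was at 78.5, 166 and 170 CPM in NSPs, 202, 196 and 161 CPM at 24 h and 109, 218 and 164 CPM at 72 h, with overlapping libraries at these times and differences from NSPs of 0.43 ± 0.47 (edgeR adjusted p = 0.453) and 0.24 ± 0.47 (edgeR adjusted p = 0.679). At 1 week it read 6.93, 5.65 and 12.2 CPM, below every other library of the series. From 72 h to 1 week its log2 fold change was -4.33 ± 0.55, a 20.1-fold fall (edgeR adjusted p = 8.7e-05), and that from NSPs to 1 week was -4.08 ± 0.55 (edgeR adjusted p = 3.98e-06). Leaving out NSP replicate 1, the lowest NSP library, gave a log2 fold change from NSPs of -4.37 (edgeR adjusted p = 3.87e-06).

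With TNF for 72 h, *Sparc* read 628, 1087 and 1076 CPM and was lower than the 1309 to 1642 CPM without TNF in every library (log2 -0.67 ± 0.18, edgeR adjusted p = 0.0252). Without 72 h TNF replicate 1 the difference was -0.44 (edgeR adjusted p = 0.104), and without replicate 1 of both TNF conditions it was -0.46 (edgeR adjusted p = 0.0438). It was also not called in a fit of the compared conditions alone (-0.63, edgeR adjusted p = 0.107) or without 72 h replicate 2 or 3. *Sparcl1* with TNF at 72 h was at 179, 43.1 and 33.8 CPM, so that replicate 1 lay in the untreated range of 109 to 218 CPM and replicates 2 and 3 lay below it. Over all 3 the difference was -0.94 ± 0.47 (edgeR adjusted p = 0.223), while without replicate 1 it was -2.09 ± 0.38 (edgeR adjusted p = 0.00176), which calls the gene lower with TNF. The same library was high in *Gfap* and low in *Acta2* and *Thbs1*, whose part in this value was not tested. At 24 h neither gene differed between TNF (585, 726 and 795 CPM of *Sparc*, 233, 129 and 128 CPM of *Sparcl1*) and no TNF beyond the threshold, with log2 differences of -0.09 ± 0.18 (edgeR adjusted p = 0.903) and -0.19 ± 0.47 (edgeR adjusted p = 0.92). From 24 h to 72 h in TNF, *Sparc* changed by 0.41 ± 0.18 (edgeR adjusted p = 0.152) and *Sparcl1* by -0.94 ± 0.47 (edgeR adjusted p = 0.213), and both passed the threshold without 72 h TNF replicate 1, at 0.65 (edgeR adjusted p = 0.00836) and -2.06 (edgeR adjusted p = 0.00147).

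The ratio of *Sparc* to *Sparcl1*, each per kilobase of exon, joined both courses. Up to 72 h without TNF only *Sparc* was called as changed, and from 72 h to 1 week only *Sparcl1*. The ratio was 2.00, 1.22 and 1.13 in the NSP libraries, 2.65, 3.17 and 3.57 at 24 h, 9.30, 5.25 and 7.76 at 72 h and 229, 256 and 110 at 1 week. With TNF it was 1.94, 4.35 and 4.82 at 24 h and 2.72, 19.6 and 24.6 at 72 h, where the 2 libraries above the untreated range were replicates 2 and 3 and replicate 1 lay below it.

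**Figure D3:**
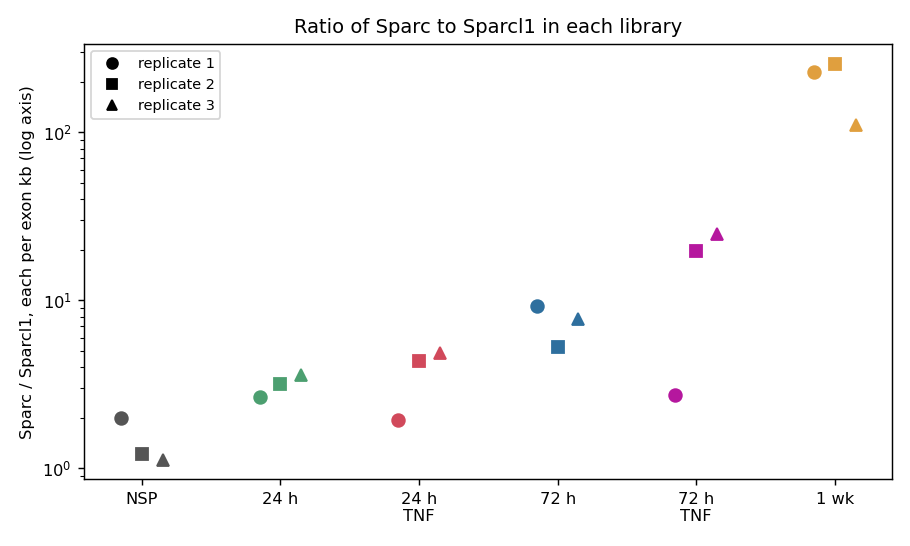
Ratio of *Sparc* to *Sparcl1* in each library, each gene's CPM divided by its exon length in kb (log axis), by condition, with replicates as circles, squares and triangles. The ratio stays between 1.13 and 2.00 in NSPs and reaches 110 to 256 at 1 week, and the 72 h TNF libraries lie at 2.72, 19.6 and 24.6.

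Glypicans are heparan sulfate proteoglycans held on the cell surface by a lipid anchor. *Gpc4* and *Gpc6* are released by astrocytes and recruit AMPA receptors to young synapses, and *Gpc5* is a glypican abundant in mature astrocytes. The members of this family moved in opposite directions. *Gpc4* (ENSMUSG00000031119, chromosome X, 52053021 to 52165252, reverse strand) was at 16.5, 10.6 and 9.1 CPM in NSPs, 160, 108 and 237 CPM at 24 h, 268, 154 and 153 CPM at 72 h and 280, 518 and 252 CPM at 1 week. The rise from NSPs was 3.80 ± 0.36 on the log2 scale at 24 h and 4.86 ± 0.38 at 1 week, 14.0-fold and 29.0-fold (edgeR adjusted p = 1.38e-07 and 3.96e-09), and no differentiated library overlapped with NSPs. After 24 h the libraries overlapped, with a step of 0.19 ± 0.32 to 72 h (edgeR adjusted p = 0.722) and of 0.87 ± 0.32 from 72 h to 1 week (edgeR adjusted p = 0.122, and 1.19 with edgeR adjusted p = 0.0491 without 72 h replicate 1). TNF left it at 115, 163 and 152 CPM at 24 h and 137, 224 and 249 CPM at 72 h, with differences of -0.23 ± 0.32 (95% interval -0.86 to 0.40, edgeR adjusted p = 0.838) and 0.09 ± 0.32 (-0.54 to 0.71, edgeR adjusted p = 0.897). Between those times in TNF it changed by 0.50 ± 0.32 (edgeR adjusted p = 0.345).

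*Gpc6* (ENSMUSG00000058571, chromosome 14, 116925315 to 117976544, forward strand) rose less, from 27.2, 23.4 and 23 CPM in NSPs to 75.6, 63.7 and 94 CPM at 24 h, 82.3, 56.2 and 49.7 CPM at 72 h and 111, 173 and 103 CPM at 1 week. The log2 fold change from NSPs was 1.66 ± 0.22, 1.35 ± 0.22 and 2.40 ± 0.22 (edgeR adjusted p = 5.38e-06, 3.51e-05 and 3.69e-08), and *Gpc6* was the only one of the 10 genes called higher at 1 week than at 72 h in the fit over all libraries (1.04 ± 0.21, edgeR adjusted p = 0.00472). With TNF it read 56.8, 68.8 and 65.9 CPM at 24 h and 38.4, 50.1 and 55.7 CPM at 72 h, and the differences from untreated cells of -0.28 ± 0.21 (edgeR adjusted p = 0.633) and -0.38 ± 0.21 (edgeR adjusted p = 0.27) missed the threshold. Per kilobase of exon, *Gpc4* was at 0.957 to 1.47 times the level of *Gpc6* in NSPs and at 4.12 to 10.8 times in the differentiated libraries.

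*Gpc5* (ENSMUSG00000022112, chromosome 14, 115092215 to 116525179, forward strand), the neighbour of *Gpc6* on the same chromosome, fell. It was at 3.05, 4.17 and 3.75 CPM in NSPs, 1.13, 0.503 and 0.896 CPM at 24 h, 0.303, 0.245 and 0.22 CPM at 72 h and 0.0883, 0.11 and 0 CPM at 1 week. The log2 fold change from NSPs was -2.14 ± 0.44 at 24 h and -3.82 ± 0.52 at 72 h (edgeR adjusted p = 0.000564 and 5.31e-06), with no overlap with NSPs. At 1 week only 4 counts were left over the 3 libraries, against 190 in NSPs, which makes *Gpc5* 50.8-fold higher in NSPs with a 95% exact interval from 19.5 to 188 that covers counting error only (edgeR adjusted p = 3.94e-07). The step from 24 h to 72 h (-1.68 ± 0.60, edgeR adjusted p = 0.0485) sat at the threshold and was lost under 14 of the 24 alternatives that gave it a value, among them the fit without 72 h TNF replicate 1 (-1.66, edgeR adjusted p = 0.0505). In TNF, *Gpc5* read 1.51, 0.298 and 0.354 CPM at 24 h and 0.225, 0.116 and 0.0626 CPM at 72 h, differences from untreated cells of -0.17 ± 0.51 (edgeR adjusted p = 0.935) and -0.85 ± 0.79 (edgeR adjusted p = 0.536) that rest on few counts. The fall between those times in TNF was called (-2.35 ± 0.66, edgeR adjusted p = 0.0246) and was -1.18 (edgeR adjusted p = 0.225) without 24 h TNF replicate 1. *Gm20713*, annotated on the other strand over exons of *Gpc5*, had 0 to 3 counts in any library.

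The sequences before the start sites of *Gpc4* and *Gpc5* are shown because these glypicans moved in opposite directions from NSPs, and that of *Sparc* because, with *Gpc5*, it had the largest TNF difference at 72 h among the 5 of the 10 genes (*Thbs2*, *Sparc*, *Gpc4*, *Gpc5* and *Mertk*) matched in the RefSeq promoter table on GRCm38.p6. Each is the 250 bases before the RefSeq start, 5′ to 3′ on the gene's strand, and capitals mark a GC box (GGGCGG) or a TATA box (TATAAA), read on both strands, so that CCGCCC and TTTATA are matches on the other strand. The windows are chrX:52164924-52165173 (reverse strand) for *Gpc4*, chr14:115091965-115092214 (forward strand) for *Gpc5* and chr11:55420081-55420330 (reverse strand) for *Sparc*.
Gpc4: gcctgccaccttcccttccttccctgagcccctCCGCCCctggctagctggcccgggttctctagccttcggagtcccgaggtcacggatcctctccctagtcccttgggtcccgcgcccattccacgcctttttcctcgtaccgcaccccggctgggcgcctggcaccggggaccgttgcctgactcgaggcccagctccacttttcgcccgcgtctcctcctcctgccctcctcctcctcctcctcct
Gpc5: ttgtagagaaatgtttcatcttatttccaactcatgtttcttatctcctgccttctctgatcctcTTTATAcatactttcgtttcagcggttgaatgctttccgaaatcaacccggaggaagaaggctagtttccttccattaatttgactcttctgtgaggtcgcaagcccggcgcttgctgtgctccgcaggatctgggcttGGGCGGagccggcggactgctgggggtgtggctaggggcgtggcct
Sparc: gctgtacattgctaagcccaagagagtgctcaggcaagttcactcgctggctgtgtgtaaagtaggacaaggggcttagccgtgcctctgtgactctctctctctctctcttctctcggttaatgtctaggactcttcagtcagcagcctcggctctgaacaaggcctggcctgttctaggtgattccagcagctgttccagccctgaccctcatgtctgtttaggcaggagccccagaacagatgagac
*Gpc4* has 1 GC box match and 68.4% G and C, *Gpc5* has 1 GC box and 1 TATA box match and 51.2% G and C, and *Sparc* has neither and 54.0% G and C, beside a median of 52.4% over all 32851 windows of this length. A GC box match is held by 32.7% of these windows and a TATA box match by 12.4%. The AP-1 motif TGANTCA, held by 6.7% of windows, was found in none of the 5, the NF-kB motif (7.3%) was found once in that of *Thbs2*, and the CArG box (1.5%) in none. *Mertk* holds 3 GC box matches, and *Thbs2* 1 TATA box match. A match is a description of the letters and not a binding site.

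*Chrdl1* encodes a secreted antagonist of bone morphogenetic proteins that astrocytes use to drive the switch to mature AMPA receptors at synapses. It was the gene of the 10 whose level went down first and up afterwards, and the only one called for a TNF difference at both times. *Chrdl1* (ENSMUSG00000031283, chromosome X, 143285674 to 143394262, reverse strand) was at 21.1, 22.6 and 23.9 CPM in NSPs, 8.31, 8.67 and 7.58 CPM at 24 h, 74.5, 93 and 99 CPM at 72 h and 43.1, 42.9 and 45.1 CPM at 1 week, and none of these conditions overlapped with another. From NSPs to 24 h its log2 fold change was -1.46 ± 0.14 (edgeR adjusted p = 2e-07), that from 24 h to 72 h was 3.44 ± 0.15, 10.8-fold (edgeR adjusted p = 8.48e-11), and that from 72 h to 1 week was -1.02 ± 0.13 (edgeR adjusted p = 0.000101). Against NSPs it was higher at 72 h (1.98 ± 0.14, edgeR adjusted p = 8.81e-10) and at 1 week (0.96 ± 0.13, edgeR adjusted p = 7.76e-06).

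With TNF, *Chrdl1* was at 15.6, 15.7 and 13.7 CPM at 24 h, above all 3 untreated libraries, and at 53.2, 47.9 and 38.1 CPM at 72 h, below all 3. The difference was 0.87 ± 0.15 at 24 h, 1.83-fold higher (edgeR adjusted p = 0.00158), and -0.94 ± 0.13 at 72 h, 1.91-fold lower (edgeR adjusted p = 0.000124). The effect of TNF at 72 h minus that at 24 h, the interaction term of the model, was -1.81 ± 0.20 (edgeR adjusted p = 0.000255), where 0.324% of all tested genes were called in this direction and 0.135% in the other. Within TNF the gene still rose from 24 h to 72 h, by 1.63 ± 0.14 (edgeR adjusted p = 1.63e-06). *Chrdl1* in replicate 1 of the TNF conditions lay with its mates, and without both of these libraries the interaction was -1.89 (edgeR adjusted p = 0.000141). Over the 26 alternatives the interaction lay between -1.92 and -1.69 and was called in 26 of 26 (adjusted p from 2.58e-12 to 0.00765 over edgeR and DESeq2). For the other 9 genes the interaction was not called, with log2 values from -0.75 (*Sparcl1*) to 0.31 (*Gpc4*). That of *Sparcl1* was -1.89 (edgeR adjusted p = 0.0964) without 72 h TNF replicate 1 and -0.37 (edgeR adjusted p = 0.832) without 24 h TNF replicate 1, and for *Sparc* it was -0.58 ± 0.25 (edgeR unadjusted p = 0.0347, adjusted p = 0.454).

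**Figure D4:**
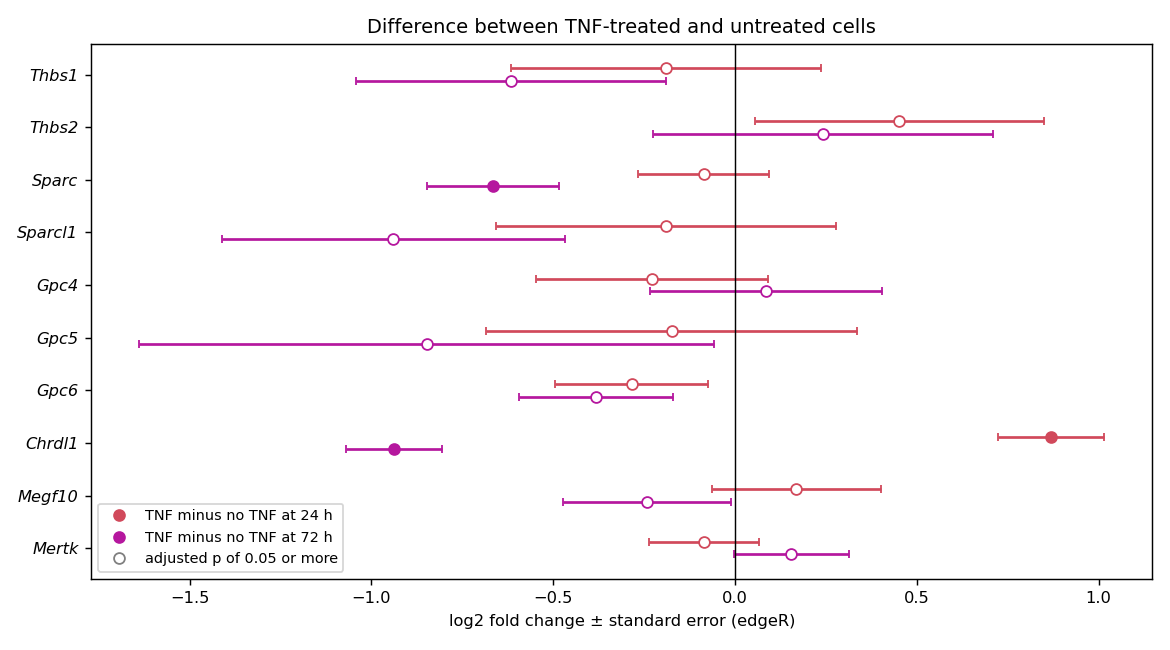
Log2 change with TNF at 24 h and at 72 h for each gene (x axis), with bars of 1 standard error from edgeR and open points where the adjusted p was 0.05 or more. *Chrdl1* lies at 0.87 at 24 h and at -0.94 at 72 h, *Sparc* at -0.67 at 72 h, and the remaining 17 points were not called.

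*Megf10* and *Mertk* are transmembrane receptors for engulfment: *Megf10* is an EGF-repeat receptor related to the worm receptor CED-1, and *Mertk* is a TAM family tyrosine kinase that reads phosphatidylserine through bridging proteins. Their levels parted during differentiation. *Megf10* (ENSMUSG00000024593, chromosome 18, forward strand) was at 23.7, 58.4 and 60.4 CPM in NSPs, 105, 101 and 103 CPM at 24 h, 180, 199 and 169 CPM at 72 h and 165, 179 and 168 CPM at 1 week. NSP replicate 1 was low, and the differentiated libraries lay above all 3 NSP libraries. The rise from NSPs was 1.12 ± 0.24 at 24 h, 1.94 ± 0.24 at 72 h and 1.84 ± 0.24 at 1 week (edgeR adjusted p = 0.000689, 1.73e-06 and 2.77e-06), and without NSP replicate 1 it was 0.79, 1.62 and 1.52 (edgeR adjusted p = 0.000459, 1.96e-07 and 3.5e-07). A further step from 24 h to 72 h was called (0.83 ± 0.23, edgeR adjusted p = 0.0134), though not without 72 h replicate 2 (0.76, edgeR adjusted p = 0.0549), and 1 week did not differ from 72 h beyond the threshold (-0.10 ± 0.23, 95% interval -0.55 to 0.35, edgeR adjusted p = 0.878).

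*Mertk* (ENSMUSG00000014361, chromosome 2, 128698956 to 128802894, forward strand) was at 20.8, 21.1 and 23.1 CPM in NSPs and at 23, 20.6 and 23.7 CPM at 24 h, overlapping sets with a difference of 0.05 ± 0.15 (95% interval -0.25 to 0.34, edgeR adjusted p = 0.804). By 72 h it read 10.6, 7.61 and 7.98 CPM and at 1 week 7.95, 10.1 and 7.61 CPM. The log2 fold change from NSPs was -1.32 ± 0.16 at 72 h and -1.34 ± 0.16 at 1 week, falls of 2.49-fold and 2.53-fold (edgeR adjusted p = 1.05e-06 and 6.94e-07), and that from 24 h to 72 h was -1.37 ± 0.16 (edgeR adjusted p = 4.72e-06). Per kilobase of exon, *Megf10* was at 0.641 to 1.55 times the level of *Mertk* in NSPs, at 2.44 to 2.76 times at 24 h and at 9.57 to 14.7 times at 72 h.

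Neither receptor was called for TNF. *Megf10* read 143, 107 and 97.8 CPM with TNF at 24 h and 130, 175 and 159 CPM at 72 h, with differences from untreated cells of 0.17 ± 0.23 (95% interval -0.29 to 0.62, edgeR adjusted p = 0.833) and -0.24 ± 0.23 (-0.69 to 0.21, edgeR adjusted p = 0.544). *Mertk* read 20.8, 23.3 and 19.3 CPM with TNF at 24 h and 10.2, 9.23 and 9.64 CPM at 72 h, with differences of -0.08 ± 0.15 (-0.38 to 0.21, edgeR adjusted p = 0.88) and 0.16 ± 0.16 (-0.15 to 0.47, edgeR adjusted p = 0.572). These intervals allow differences of up to 0.69 on the log2 scale for *Megf10* and of up to 0.47 for *Mertk*. From 24 h to 72 h in TNF, *Mertk* fell by 1.12 ± 0.15 (edgeR adjusted p = 0.000134), and *Megf10* changed by 0.41 ± 0.23 (edgeR adjusted p = 0.267), a difference of the same size that was called in the fit without NSP replicate 1 (0.41, edgeR adjusted p = 0.0423).

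Other genes of the same pathways were taken from lists of 56 genes in all, of which 47 were tested. Of the 9 tested relatives in the thrombospondin, glypican, SPARC and chordin families, 2 rose and 5 fell from NSPs to 1 week, where 29.6% of all tested genes rose and 29.1% fell. *Thbs3*, the thrombospondin with the highest level after *Thbs1*, rose from 33.1 ± 5.90 to 91.4 ± 2.36 CPM (log2 1.46 ± 0.14, edgeR adjusted p = 6.95e-08), and *Fstl1*, a secreted SPARC relative, rose by 1.82 ± 0.27 (edgeR adjusted p = 1.29e-05). *Gpc1* fell from 135 ± 21.1 to 53.9 ± 2.31 CPM (log2 -1.33 ± 0.18, edgeR adjusted p = 5.01e-06), *Gpc2* fell by 1.75 ± 0.26 (edgeR adjusted p = 1.19e-05), and *Smoc1*, a SPARC relative with a thyroglobulin domain, fell by 3.91 ± 0.36 (edgeR adjusted p = 3.32e-08). *Gpc1* was the family relative called lower with TNF at both times (-0.87 ± 0.18 and -0.86 ± 0.18, edgeR adjusted p = 0.00897 and 0.00427), and *Thbs3* was lower at 72 h (-0.48 ± 0.14, edgeR adjusted p = 0.0366). *Comp* at a mean of 0.343 CPM and *Chrdl2* at 0.0272 CPM over the 18 libraries were near the bottom of the range, and *Chrd*, at 2.98 CPM, was not called in any comparison.

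All 15 listed genes for receptors and partners through which these proteins act on neurons were tested. From NSPs to 1 week 1 rose, 7 fell and 7 were not called, with a median log2 fold change of -0.56 beside 0.06 over all genes, of which 29.6% rose and 29.1% fell. *Ptprs*, the receptor phosphatase that binds *Gpc4*, was at 562 ± 98.4 CPM in NSPs and 438 ± 67.4 CPM at 1 week (-0.36 ± 0.18, edgeR adjusted p = 0.0965). With TNF, 2 of the 15 were lower at 24 h and 3 at 72 h, beside 1.32% and 5.21% of all genes, and none was called higher, beside 2.18% and 4.35%.

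Of the 23 tested genes for engulfment, 9 rose, 10 fell and 4 were not called from NSPs to 1 week, beside the same 29.6% and 29.1% of all genes. Among the TAM receptors and ligands, *Axl* rose (1.18 ± 0.11, edgeR adjusted p = 6.65e-08), as did *Pros1*, the ligand protein S (1.39 ± 0.16, edgeR adjusted p = 7.6e-07), while the receptor *Tyro3* (-2.14 ± 0.20, edgeR adjusted p = 3.21e-08) and the ligand *Gas6* (-2.97 ± 0.50, edgeR adjusted p = 6.02e-05) fell, as did *Mertk*. In the list with *Megf10*'s relatives and adaptor, the lipid exporter *Abca1* rose from 221 ± 143 to 1304 ± 68.4 CPM (2.56 ± 0.42, edgeR adjusted p = 4.42e-05) and the scavenger receptor *Lrp1* was at 385 ± 163 and 617 ± 212 CPM (0.68 ± 0.38, edgeR adjusted p = 0.131). In the bridging, integrin and actin list, the integrin gene *Itgav* fell by 1.23 ± 0.12 (edgeR adjusted p = 5.65e-08) and *Rac1* by 0.71 ± 0.13 (edgeR adjusted p = 0.000103). Of the signals on targets, the chaperone *Calr* fell by 0.81 ± 0.22 (edgeR adjusted p = 0.00378), the complement gene *C3* rose, and *C1qa*, *C1qb* and *C1qc* had no count in any library.

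With TNF, 3 of these 23 genes were higher and 1 lower at 24 h (2.18% and 1.32% of all genes), and 3 were higher and 3 lower at 72 h (4.35% and 5.21%). *C3* was at 1.21, 1.73 and 6.76 CPM without and 356, 89.6 and 104 CPM with TNF at 24 h (log2 5.87 ± 0.58, edgeR adjusted p = 7.04e-06), and at 104, 128 and 117 CPM without and 1525, 1363 and 1380 CPM with TNF at 72 h (3.61 ± 0.49, edgeR adjusted p = 8.24e-05). *Pros1* was higher with TNF at 24 h (1.02 ± 0.16, edgeR adjusted p = 0.000921), and *Itgav* at 72 h (0.77 ± 0.12, edgeR adjusted p = 0.000265). The interaction of TNF and time was called for 2 of the 47 pathway genes, 1 higher and 1 lower (0.135% and 0.324% of all tested genes), which are named here after their values were seen. *Gulp1*, the adaptor that binds the tail of CED-1-like receptors such as *Megf10*, was at 7.28 ± 0.393 CPM without and 14.3 ± 3.64 CPM with TNF at 24 h, and at 48.5 ± 5.65 and 33.2 ± 6.93 CPM at 72 h (interaction -1.51 ± 0.33, edgeR adjusted p = 0.0479). *Elmo1*, a scaffold for the actin step of engulfment, was at 25.9 ± 1.39 CPM without and 17.96 ± 1.18 CPM with TNF at 24 h, and at 5.00 ± 0.284 and 7.72 ± 1.18 CPM at 72 h (interaction 1.16 ± 0.22, edgeR adjusted p = 0.0236). The *Gulp1* interaction was called under 6 of 26 alternatives and that of *Elmo1* under 19 of 26.

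For each gene with a mean of at least 1 CPM, the genes whose log2 CPM ran most like it over the 18 libraries were found among 16450 genes by Pearson's r, as a description in which libraries of a condition share their time and treatment. The most alike was *BC026762* for *Thbs1* (r = 0.983), *Scn3a* for *Thbs2* (0.904), *Osbpl5* for *Sparc* (0.991), *Cd36* for *Sparcl1* (0.971), *Dock5* for *Gpc4* (0.982) and *Igsf9b* for *Gpc6* (0.965). It was *Ndp* for *Chrdl1* (0.944), *Crebrf* for *Megf10* (0.985) and *Sema5a* for *Mertk* (0.959). The next were *Hc* and *Mtss1* for *Thbs1*, *Trpm7* and *Reps2* for *Thbs2*, *Elmod1* and *Folr1* for *Sparc*, *Col9a3* and *Svep1* for *Sparcl1*, *Palld* and *Kazn* for *Gpc4*, and *Gm14021* and *Gm13617* for *Gpc6*. *Cfap300* and *Dnajc15* followed for *Chrdl1*, *Wdr19* and *Cfap97d2* for *Megf10*, and *Elmo1* and *Ncan* for *Mertk*.

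Ordered by level per kilobase of exon, *Sparc* stood first in every condition, and the genes behind it changed places. In NSPs it was followed by *Sparcl1*, then by *Megf10* (6.16 ± 2.67 CPM per kb), *Mertk* (5.00 ± 0.285), *Gpc4* (4.55 ± 1.48) and *Gpc6* (3.82 ± 0.356), of which each overlapped with the next. *Chrdl1* (3.33 ± 0.209) came after these without overlap, *Gpc5* (0.822 ± 0.128) and *Thbs1* (0.721 ± 0.133) overlapped, and *Thbs2* (0.155 ± 0.0730) was last. At 72 h *Gpc4* (72.2 ± 24.9), *Thbs1* (63.7 ± 6.40) and *Sparcl1* (55.8 ± 18.6) overlapped behind *Sparc* (390 ± 43.9). At 1 week *Gpc4* (132 ± 55.1) and *Thbs1* (122 ± 4.03) were together behind *Sparc*, *Megf10* (22.1 ± 0.932) and *Gpc6* (20.1 ± 5.99) overlapped below them, *Sparcl1* (2.81 ± 1.18) had dropped to the level of *Mertk* (1.98 ± 0.317), and *Thbs2* and *Gpc5* were at 0.0791 ± 0.0230 and 0.0148 ± 0.0131.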

How the data were processed

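Gene counts of 18 libraries were analysed. The authors trimmed paired reads with Trim Galore, aligned them with STAR and counted them per gene with featureCounts on mm10, and deposited raw counts without normalization. Tool versions, strand setting, handling of reads that fit several genes and annotation release are not given in the sources used here. RNA quality is given only as a range of 3.4 to 10 (RQN), so its part was not tested. Replicates all differed beyond counting noise, at a chi-square of 3.71 to 55.4 per df, so each was counted as 1 sample. The column of 72 h replicate 3 carries another number in the table and was matched by its library index. All columns were used.

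Names, positions and exon lengths came from GENCODE M21 (GRCm38), which holds 54809 of 54838 identifiers. edgeR 4.0.16 (limma 3.58.1, R 4.3.3) fitted its quasi-likelihood test over all libraries with TMM factors, a mean per condition and its filter by condition, in 8 comparisons and the TNF by time interaction. The standard error is the log2 fold change divided by the square root of F, and intervals are 1.96 standard errors. Most-alike genes used log2 CPM with a prior count of 2. Summaries were made in Python 3.11.15 (pandas 2.3.3, numpy 2.4.6, scipy 1.17.1) and plots in matplotlib 3.10.9. The fit was tested on simulated data.

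The 10 genes, the lists and the tests were chosen with earlier results of these data known. The text names every one of the 10 genes, the 2 genes of highest mean CPM in each list and the 3 genes most like each, other genes being named where a comparison called them or as markers. 1 gene that this rule names is not reported here. Alternatives were DESeq2 1.42.0, RLE factors, a minimum of 5 counts per gene or of 10 in each library, fitting the compared conditions alone, blocking on replicate number, also requiring an absolute log2 change of 1, and leaving out each library. A block with 72 h replicate 3 unpaired and a fit without replicate 1 of both TNF conditions were added after seeing the data. The labels number the replicates in each condition, and only between 72 h TNF and 24 h TNF did the deviations of same-numbered libraries correlate above 0.1 in all 3 pairs (0.255 to 0.291, and for 72 h against NSPs 0.0525 to 0.219). There the replicate block called 4 of the 10 genes, as without it. Counts carry no molecular identifiers, so count intervals cover counting error only.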

Additional observations from a re-analysis of the deposited data

Results flagged for a closer look

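The effect of TNF differed between 24 h and 72 h for 1 of the 10 genes and 2 of the 47 pathway genes, by the interaction term of the model fitted over all genes, where 0.135% of all tested genes were called higher and 0.324% lower. For *Chrdl1* the effect at 72 h minus that at 24 h was -1.81 on the log2 scale (edgeR adjusted p = 0.000255), from 3 of 3 libraries above the untreated ones at 24 h to 3 of 3 below them at 72 h. For *Gulp1* it was -1.51 (edgeR adjusted p = 0.0479, and 0.00261 to 0.208 over the alternatives), and for *Elmo1* it was 1.16 (edgeR adjusted p = 0.0236, and 0.000307 to 0.183).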

How the results depend on the processing

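Of the 42 calls for the 10 genes, 34 were kept under every refit that gave a value, the condition on fold size set aside (31 under 26, and the 3 *Gpc5* calls against NSPs under 25), 8 were lost under some and none was reversed, and RLE factors and DESeq2 changed no call. The number of the 10 genes called moved from 6 to between 3 and 6 for 72 h against 24 h, from 2 to between 1 and 2 for TNF at 72 h and from 4 to between 2 and 6 for 72 h TNF against 24 h TNF when single libraries were left out. With only the conditions compared it was 1 for TNF at 72 h and 2 for 72 h TNF against 24 h TNF. At least 10 counts in every library, which removes *Thbs2* and *Gpc5*, left 2 in the latter. Fits of only the conditions compared also called the *Thbs1* steps from 24 h to 72 h and from 72 h to 1 week, which the fit over all libraries did not. A log2 fold change of at least 1, a condition added to the calls and not a refit, left 0 for TNF at 24 h and 0 at 72 h, from edgeR calls of 1 and 2, and so ended both *Chrdl1* calls with TNF. Where same-numbered replicates were not shown to be paired, the replicate block ended only the *Thbs2* calls for 24 h against NSPs (1.09, edgeR adjusted p = 0.0514) and 72 h against 24 h (-1.28, edgeR adjusted p = 0.0532), giving 7 and 5 genes in place of 8 and 6. With 72 h replicate 3 unpaired in the block, 1 gene was called for TNF at 72 h, the *Gpc4* difference was -0.10, and the *Gpc6* call for 1 week against 72 h was lost (0.87, edgeR adjusted p = 0.0734). Without replicate 1 of both TNF conditions, the 24 h TNF differences were 0.14 (*Thbs1*), -0.18 (*Thbs2*), 0.03 (*Sparc*) and -0.02 (*Megf10*), and the *Thbs2* interaction was 0.66. Uncalled values that changed sign when 1 library was left out were the 24 h TNF differences of *Thbs1* (-0.42 to 0.13), *Thbs2* (-0.19 to 0.78), *Sparc* (-0.19 to 0.01), *Gpc4* (-0.47 to 0.08), *Gpc5* (-1.32 to 0.17) and *Megf10* (-0.03 to 0.28), and the 72 h TNF differences of *Thbs2* (-0.08 to 0.49) and *Gpc4* (-0.09 to 0.40). The interactions of *Thbs1* (-0.77 to 0.06), *Thbs2* (-0.54 to 0.45), *Gpc5* (-1.23 to 0.49) and *Gpc6* (-0.24 to 0.14) did so too, as did 72 h against NSPs for *Thbs2* (-0.47 to 0.19) and *Sparcl1* (-0.04 to 0.47), 72 h against 24 h for *Sparcl1* (-0.45 to 0.04) and *Gpc4* (-0.13 to 0.53), and 1 week against 72 h for *Mertk* (-0.16 to 0.14). The cause was not tested. Depth limits *Thbs2* and *Gpc5*, the latter with 4 counts in all at 1 week.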
